A study of Mus musculus with 19 samples.

Results

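The unfolded protein response genes described here are 10 mouse genes of the endoplasmic reticulum (ER): Hspa5, Hsp90b1, Calr, Pdia4, Pdia6, Dnajb9, Sdf2l1, Xbp1, Atf4 and Ddit3. They were found in the count table by the symbol of their Ensembl gene ID. The table listed all 10 of them among 20655 gene IDs, and all 10 were among the 18204 genes that passed the filter on low counts. Secreted and membrane proteins fold inside the ER, and when unfolded protein builds up there, the sensors IRE1, PERK and ATF6 start a shared gene programme. IRE1 splices the mRNA of Xbp1, PERK favours translation of ATF4 and through it the factor CHOP, and ATF6 is cut to release a transcription factor that, like XBP1, raises ER chaperones. In Alzheimer's disease and its mouse models this response has been studied as a companion of amyloid and tau pathology.

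The data are bulk RNA-seq libraries of 19 left hippocampi, each from a different mouse at an age of 4 months. Every animal was hemizygous for 5xFAD (labelled 5xFADHEMI), transgenes for mutant human amyloid precursor protein and presenilin under the neuronal Thy1 promoter. The design set animals with 5xFAD alone, called 5xFAD below (5 females and 5 males), against animals that carried, beside it, a clusterin knock-in on both alleles, labelled CLUh2kbKIHO and called knock-in below (4 females and 5 males). Clusterin is a secreted chaperone and lipid carrier, and the labels do not give the sequence that the knock-in changes. Mice without the 5xFAD transgenes were not analysed here. No litter, date or batch was given, and animal and library numbers of the genotypes lie in separate ranges, so genotype and cohort cannot be told apart.

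Depth ran from 17.28 to 25.2 M counts per library, where M stands for mega, with a mean of 19.70 ± 1.74 M (SD, n = 19). The mouse Clu gene itself stood at 1204 ± 187 CPM (counts scaled to library size; SD, n = 4) in knock-in females and 983 ± 139 CPM (n = 5) in 5xFAD females, and at 962 ± 181 CPM (n = 5) in knock-in males and 976 ± 115 CPM (n = 5) in 5xFAD males (genotype effect, edgeR adjusted p = 0.665). Reads of human clusterin sequence may go uncounted on a mouse reference, which leaves the labels unchecked by this gene. All 10 markers of hippocampal neurons were detected, with a sum between 920.2 and 1272 CPM in every library.

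ER chaperone genes such as Hspa5 are textbook targets of an ER stress element in the promoter, and the elements found are printed because they are a sequence that several members share. The element was searched as CCAAT, then any 9 bases, then CCACG, on both strands, in the 300 bases from 250 before to 50 after the RefSeq gene start on GRCm38.p6, a build other than that of the count table. All 10 members had a promoter in that set. The element was present in 4 of 10 members and in 39 of 32851 promoters (0.119%). In the elements, read 5′ to 3′ on the strand that carries the match, capitals mark the fixed bases.
Hspa5, 65 bases before the start: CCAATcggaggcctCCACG
Hsp90b1, 212 bases before the start: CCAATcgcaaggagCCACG
Hsp90b1, 107 bases before the start, on the opposite strand: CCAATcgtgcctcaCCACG
Calr, 162 bases before the start, on the opposite strand: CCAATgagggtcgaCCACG
Pdia6, 98 bases before the start: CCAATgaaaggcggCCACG

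The whole windows of Hspa5, Hsp90b1 and Pdia4 are shown because these were the members that passed the test in females. Capitals again mark the fixed bases of the element, on either strand. The Hspa5 window lies at chr2:34771840-34772139, plus strand, the Hsp90b1 window at chr10:86705395-86705694, minus strand, and the Pdia4 window at chr6:47813463-47813762, minus strand, where the searched letters were not found.
Hspa5: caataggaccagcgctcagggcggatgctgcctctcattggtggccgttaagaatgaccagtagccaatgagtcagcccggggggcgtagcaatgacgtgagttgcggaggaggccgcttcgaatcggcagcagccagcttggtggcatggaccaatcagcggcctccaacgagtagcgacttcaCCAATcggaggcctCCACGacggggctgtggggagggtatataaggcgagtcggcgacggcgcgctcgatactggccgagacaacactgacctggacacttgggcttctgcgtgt
Hsp90b1: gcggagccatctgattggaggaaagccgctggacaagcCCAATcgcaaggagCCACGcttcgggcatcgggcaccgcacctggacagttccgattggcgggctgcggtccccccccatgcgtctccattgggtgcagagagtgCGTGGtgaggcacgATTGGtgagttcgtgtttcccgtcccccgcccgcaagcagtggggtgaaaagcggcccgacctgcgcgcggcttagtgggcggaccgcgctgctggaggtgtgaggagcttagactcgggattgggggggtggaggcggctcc
Pdia4: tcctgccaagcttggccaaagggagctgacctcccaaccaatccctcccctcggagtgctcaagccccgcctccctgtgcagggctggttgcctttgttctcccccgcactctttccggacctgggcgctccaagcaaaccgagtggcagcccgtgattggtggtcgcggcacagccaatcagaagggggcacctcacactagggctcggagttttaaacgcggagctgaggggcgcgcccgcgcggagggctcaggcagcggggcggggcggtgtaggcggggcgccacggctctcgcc

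Further motifs were searched in the same windows, again on both strands. The letters ATTGG, then any 1 base, then CCACG (ERSE-II) occurred in 12 promoters (0.0365%), TGACGTGG, the core of the XBP1 and ATF6 element, in 222 (0.676%), and TGATGCAA, a form of the element bound by ATF4 with C/EBP factors, in 294 (0.895%). None of these was found in the windows of the 10 members. A match describes letters and not binding, and a missing match says only that the letters are not in this window.

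Mean levels per kilobase of the longest coding transcript (CPM per kb, mean over 19 libraries) put Calr first at 141.9 ± 21.3 (SD), followed by Hsp90b1 at 102.9 ± 14.7, Atf4 at 74.8 ± 9.95 and Hspa5 at 68.0 ± 15.1. The middle was held by Pdia6 at 48.3 ± 7.93 and Xbp1 at 35.8 ± 7.08. The lowest were Ddit3 at 19.2 ± 2.84, Dnajb9 at 18.4 ± 3.38, Pdia4 at 18.1 ± 4.65 and Sdf2l1 at 12.02 ± 2.76 CPM per kb. Neighbours in this order kept their order in at least 18 of 19 libraries, except Atf4 above Hspa5 (13 libraries), Ddit3 above Dnajb9 (14) and Dnajb9 above Pdia4 (9), which did not differ beyond their spread. The counts of libraries use the same lengths, so they do not check the choice of length. The median coding transcript was shorter for Hsp90b1 (1972 against 2825 bases), Xbp1 (1099 against 2129) and Dnajb9 (1422 against 2461), but not for Calr or Pdia6. By median length Hsp90b1 would pass Calr, Xbp1 would pass Pdia6 and Dnajb9 would pass Ddit3. By the longest transcript, Calr, Hsp90b1 and Hspa5, the general chaperones, stood above the BiP partners Dnajb9 and Sdf2l1 per kb. Ddit3 was then close to Dnajb9 and Pdia4.

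The main lumenal chaperones of the ER and a disulfide isomerase were higher in knock-in than in 5xFAD females, and no member passed the test in males. Of the 10 members, Hspa5, Pdia4 and Hsp90b1 rose in females (edgeR quasi-likelihood test, Benjamini-Hochberg adjusted p under 0.05 over all genes tested) and none fell. Of all genes tested, 5.56% were called in either direction in this comparison and 1.13% as higher. The median log2 change of the 10 genes was 0.37, against 0.01 over all genes tested, and 10 of 10 were above 0, against 51.1% of all genes. In 5 of 10 (Hspa5, Hsp90b1, Calr, Pdia4 and Xbp1) every knock-in female lay above every 5xFAD female, which held for 703 genes of the table (3.86%). In whole tissue, more cells of a type and more RNA per cell cannot be told apart.

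**Figure D1:**
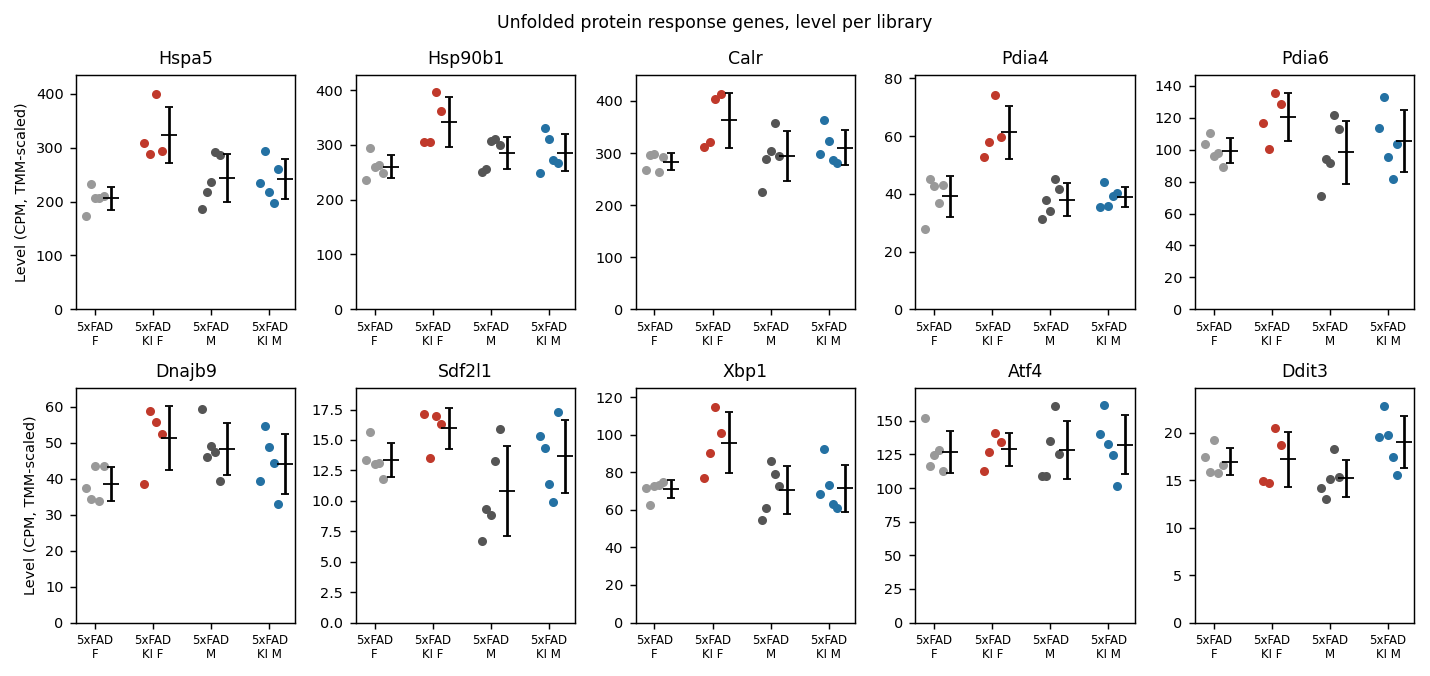
Level of each of the 10 genes in CPM (linear axes from 0) in every library; points are animals in the 4 groups, and the bar beside them is the mean with its SD (n = 5, except 4 knock-in females). For Hspa5, Hsp90b1, Calr, Pdia4 and Xbp1 the knock-in females lie above all 5xFAD females, while the male groups overlap for every gene.

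Hspa5 encodes BiP, the main Hsp70 chaperone of the ER lumen, which also holds the stress sensors inactive. It stood at 308.8, 289.3, 399.9 and 293.3 CPM in knock-in females 1, 2, 4 and 5, and at 172.4, 232.7, 206.5, 206.7 and 210.4 CPM in 5xFAD females 1 to 5. All 4 knock-in females were above the highest 5xFAD female, and knock-in female 4 was highest of all. The log2 change was 0.65 (SE 0.14, edgeR adjusted p = 0.0132), a 1.57-fold rise, with an exact two-sided permutation p of 0.0079, the smallest that relabelling 4 and 5 animals allows. Hspa5 stood at 234.8, 293.5, 218.2, 198.2 and 260.4 CPM in knock-in males 6 to 10, and at 185.4, 218.1, 237.1, 291.7 and 286.2 CPM in 5xFAD males 6 to 10. The male groups covered nearly the same range, and the log2 change was -0.02 (SE 0.13, adjusted p = 0.990).

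Hsp90b1 encodes GRP94, the Hsp90 chaperone of the ER lumen. It stood at 304.9, 304.6, 396.1 and 361.2 CPM in knock-in females 1, 2, 4 and 5, against 236.0, 294.3, 259.9, 262.9 and 249.0 CPM in 5xFAD females 1 to 5. The lowest knock-in female was just above 5xFAD female 2, the highest of its group. The log2 change was 0.39 (SE 0.11, edgeR adjusted p = 0.0363, exact permutation p = 0.0159). In males the levels were 248.3 to 330.8 CPM in knock-in and 250.4 to 310.2 CPM in 5xFAD animals, where knock-in males 7 and 8 lay above and knock-in male 6 below all 5xFAD males, and the log2 change was 0.00 (SE 0.10, edgeR adjusted p = 0.996).

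Calr encodes calreticulin, a calcium-binding chaperone that retains glycoproteins until they are folded. Its levels were 312.3, 321.1, 403.2 and 413.3 CPM in knock-in females 1, 2, 4 and 5, and 268.0, 295.7, 297.8, 263.4 and 293.3 CPM in 5xFAD females 1 to 5. The groups did not overlap, but the difference missed the threshold across all genes (log2 change 0.35, SE 0.12, edgeR adjusted p = 0.0784, exact permutation p = 0.0079 unadjusted). In males, knock-in animals ran from 281.5 to 362.9 CPM and 5xFAD animals from 224.5 to 357.8 CPM.

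Pdia4 (ERp72) and Pdia6 (P5) are disulfide isomerases that form and rearrange disulfide bonds in the ER lumen. Pdia4 stood at 52.9, 58.1, 74.4 and 59.7 CPM in knock-in females 1, 2, 4 and 5, and at 27.9, 45.2, 42.8, 36.7 and 43.1 CPM in 5xFAD females 1 to 5. The groups did not overlap, and the log2 change of 0.65 (SE 0.14, edgeR adjusted p = 0.0122, exact permutation p = 0.0079) was as large as that of Hspa5. Pdia4 stood at 35.5, 44.0, 35.9, 39.3 and 40.3 CPM in knock-in males 6 to 10, and at 31.3, 38.0, 33.9, 45.1 and 41.7 CPM in 5xFAD males 6 to 10. All 10 males, of either genotype, thus lay below the lowest knock-in female, and the log2 change in males was 0.04 (SE 0.13, edgeR adjusted p = 0.973). Pdia6 ran from 100.7 to 135.6 CPM in knock-in females and from 89.3 to 110.3 CPM in 5xFAD females, which overlapped (log2 change 0.28, SE 0.14, edgeR adjusted p = 0.265). In males Pdia6 ran from 81.6 to 133.2 CPM in knock-in and from 71.1 to 121.8 CPM among 5xFAD animals.

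Dnajb9 (ERdj4) is a J-domain partner of BiP, and Sdf2l1 is an ER lumenal protein that works with BiP and its J-domain partners. Dnajb9 stood at 38.6, 58.7, 55.6 and 52.3 CPM in knock-in females 1, 2, 4 and 5, and at 37.3, 34.5, 43.5, 33.8 and 43.4 CPM in 5xFAD females 1 to 5. Here 3 of 4 knock-in females lay above all 5xFAD females, and knock-in female 1 lay among them (log2 change 0.41, SE 0.15, edgeR adjusted p = 0.0969). In males the log2 change of Dnajb9 was -0.13 (SE 0.14, edgeR adjusted p = 0.905). Sdf2l1, the least abundant member per kb, ran from 13.5 to 17.1 CPM in knock-in females and from 11.8 to 15.6 CPM in 5xFAD females (log2 change 0.26, SE 0.20, edgeR adjusted p = 0.483). Its spread was largest in males, with 9.90 to 17.3 CPM in knock-in and 6.67 to 15.9 CPM in 5xFAD animals (log2 change 0.34, SE 0.19, edgeR adjusted p = 0.785).

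The transcription factors of the response did not all go with the chaperones. Xbp1, the factor made active by IRE1, stood at 77.1, 90.4, 114.9 and 101.0 CPM in knock-in females 1, 2, 4 and 5, and at 71.9, 62.8, 72.5, 73.1 and 74.7 CPM in 5xFAD females 1 to 5. The groups did not overlap, but the change missed the threshold (log2 change 0.43, SE 0.14, edgeR adjusted p = 0.0660). Counts per gene do not separate spliced from unspliced Xbp1 mRNA, so they carry no reading of IRE1 activity. In males, Xbp1 ran from 60.9 to 92.2 CPM in knock-in and from 54.7 to 86.0 CPM in 5xFAD animals.

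Atf4 and Ddit3, the factors of the PERK arm, overlapped between genotypes in females, and for each the log2 change was 0.02 (SE 0.13, edgeR adjusted p = 0.951 for both). The 95% interval of that change ran from -0.24 to 0.28 for each, which lies below the fitted change of Hspa5 and of Pdia4. Atf4 ran from 112.8 to 141.2 CPM in knock-in females and from 112.7 to 152.5 CPM in 5xFAD females. Ddit3 ran from 14.7 to 20.5 CPM and from 15.8 to 19.2 CPM in the same groups. ATF4 is controlled mainly at translation, which mRNA counts do not show. Ddit3 was the member with the smallest p in males, at 19.6, 22.8, 19.7, 17.4 and 15.5 CPM in knock-in males 6 to 10 and 14.2, 13.05, 15.1, 18.3 and 15.3 CPM in 5xFAD males 6 to 10. Knock-in males 6, 7 and 8 lay above all 5xFAD males and the others among them, and the change failed the correction (log2 change 0.32, SE 0.13, edgeR adjusted p = 0.715).

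In males as a whole edgeR called 0 of 10 members, with 0% of all genes called. DESeq2 and limma-voom also called 0 members, with 0.111% and 0% of all genes called. Shares for DESeq2, here and below, are of the genes it gave an adjusted p. Ddit3 alone was below an unadjusted p of 0.05, as were 6.52% of all genes, and no member had all knock-in males above all 5xFAD males. The share of all genes without such overlap in males is not given, so this count is not read as a result about the members. The median log2 change of the members in males was 0.04, against 0.01 over all genes tested.

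**Figure D2:**
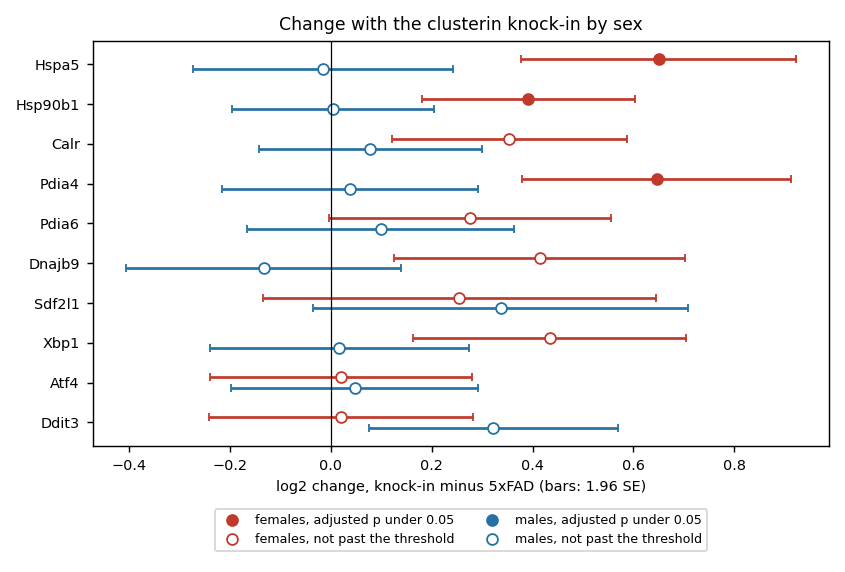
Log2 change between knock-in and 5xFAD animals for each of the 10 genes in females (red) and males (blue), with bars for the 95% interval; filled circles passed an edgeR adjusted p of 0.05. Hspa5, Pdia4 and Hsp90b1 are the filled points, all in females at 0.65, 0.65 and 0.39.

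Over both sexes, with sex as a covariate, edgeR called 0 of 10 members, where 4 genes of the table (0.022%) passed. DESeq2 and limma-voom called 0 members as well, with 0.718% and 0.011% of all genes called. By unadjusted p under 0.05, 6 of 10 members differed, against 11.9% of all genes, and all 10 changes were above 0, with a median of 0.20 against 0.00 over all genes. Pdia4 had the smallest p, with 48.9 ± 13.3 CPM in 9 knock-in animals and 38.6 CPM on average in 10 5xFAD animals (log2 change 0.33, SE 0.11, edgeR adjusted p = 0.292). For Hspa5 the log2 change was 0.30 (SE 0.12, edgeR adjusted p = 0.343), and for Sdf2l1 it was 0.30 (SE 0.14, edgeR adjusted p = 0.395). This count of 6 was 1 without knock-in female 4, and 3 without knock-in female 5, knock-in male 7, 5xFAD female 1, 5xFAD male 6 or 5xFAD male 7, with a range of 1 to 8 over single libraries left out. It was 0 with the level of 8 long noncoding RNAs as a covariate, where 8 of 10 changes were above 0, with a median of 0.09 (0.09 for Hspa5, 0.16 for Pdia4). With the microglial level it was also 0, and with the choroid plexus level it was 2. The share of all genes below this unadjusted p in these other fits is not given. A loss among the members therefore cannot be told from a loss over all genes. In the main fit the change was 0.21 for Calr and for Xbp1 and 0.19 for Hsp90b1, and these 3 were also below the unadjusted threshold. It was 0.18 for Pdia6 and for Ddit3, 0.13 for Dnajb9 and 0.03 for Atf4.

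Whether the change differed between the sexes was tested as the change in females minus that in males. edgeR called 0 of 10 members, with 0.308% of all genes called, and 5 members were below an unadjusted p of 0.05, against 17.7% of all genes. The difference was 0.67 for Hspa5 (SE 0.19, edgeR adjusted p = 0.0880), 0.61 for Pdia4 (SE 0.19, adjusted p = 0.106) and 0.55 for Dnajb9 (SE 0.20, adjusted p = 0.165). It was 0.42 for Xbp1 (edgeR adjusted p = 0.255), 0.39 for Hsp90b1 (adjusted p = 0.177) and 0.28 for Calr (adjusted p = 0.400). Ddit3 went the other way, at -0.30 (edgeR adjusted p = 0.411). DESeq2 called 2 members, Hspa5 with an adjusted p of 0.0269 and Pdia4 with 0.0480, and limma-voom called 0. Of all genes, DESeq2 called 3.9% and limma-voom 0%. In edgeR, Hspa5 passed without knock-in male 7 (adjusted p = 0.0393) or without 5xFAD male 6 (adjusted p = 0.0477). Those fits called 2.69% and 1.05% of all genes. When the noncoding level was added to the fit, the difference was 0.25 for Hspa5 (SE 0.25), 0.34 for Pdia4 (SE 0.26), 0.15 for Hsp90b1 (SE 0.20) and 0.0089 for Xbp1 (SE 0.24), each with an edgeR adjusted p of at least 0.99, and the median of the members moved from 0.33 to 0.05. The difference between the sexes therefore passed or missed the threshold with the tool and with single libraries, and its size moved with this covariate.

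Among 5xFAD animals alone, edgeR called 0 of 10 members between females and males, with 0.0385% of all genes called. DESeq2 and limma-voom called 0 members, with 1.09% and 0.033% of all genes called. DESeq2 gave an adjusted p to only 3836 genes here. Dnajb9 was not among them and so could not be called by DESeq2. Dnajb9 was the member below an unadjusted p of 0.05, as were 11.1% of all genes, with 38.5 ± 4.72 CPM in females and 48.3 CPM on average in males (female minus male -0.33; SE 0.14, edgeR adjusted p = 0.403). Hspa5 was also lower in 5xFAD females by value (-0.24, SE 0.13, edgeR adjusted p = 0.501).

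Among knock-in animals, edgeR again called 0 of 10 members between the sexes, with 0.0494% of all genes called, and 4 members were below an unadjusted p of 0.05, against 14.4% of all genes. Pdia4 had the largest difference (female minus male 0.65, edgeR adjusted p = 0.0744), with every knock-in female above every knock-in male. DESeq2 called Pdia4 (adjusted p = 0.0028), and limma-voom called 0 members. Of all genes, DESeq2 called 2.81% and limma-voom 0.0439%. The difference was 0.42 for Xbp1 (edgeR adjusted p = 0.149), 0.42 for Hspa5 (adjusted p = 0.152) and 0.26 for Hsp90b1 (adjusted p = 0.262). In edgeR, Pdia4 passed without knock-in male 7 (adjusted p = 0.0323), 5xFAD female 1 (0.0269) or 5xFAD male 10 (0.0177), and Xbp1 passed without knock-in male 7 (0.0468). Without these libraries, in the same order, 1.87%, 0.0605% and 1.78% of all genes were called. The comparisons within one sex and within one genotype share animals, so they are not independent of each other.

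The calls in females changed when single animals were left out and with the tool. Without knock-in female 2 the log2 changes were 0.69 for Hspa5 (edgeR adjusted p = 0.0546), 0.66 for Pdia4 (adjusted p = 0.0546) and 0.43 for Hsp90b1 (adjusted p = 0.0681). Without knock-in female 4 they were 0.55 (adjusted p = 0.0775), 0.56 (0.0744) and 0.33 (0.150). In both cases edgeR called 0 genes in the whole table. Without knock-in female 1, 6 members passed, as Xbp1 (adjusted p = 0.0340), Dnajb9 (0.0355) and Calr (0.0456) joined. Of all genes, 5.13% were called in that fit. Without 5xFAD male 6, which enters through the shared spread, 5 passed, with 6.62% of all genes called. Hsp90b1 also lost its call without knock-in female 5 (adjusted p = 0.0770) or 5xFAD female 1 (0.0989), 4 (0.0613) or 5 (0.0515). DESeq2 called 5 members, adding Xbp1 (adjusted p = 0.0326) and Calr (0.0373), and limma-voom called the same 3 as edgeR. Of all genes, DESeq2 called 9.4% and limma-voom 4.59%.

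Several measures of the tissue differed between the female groups too. Beside the counts below, edgeR called 206 of 18204 genes as higher in females (1.13%) and 807 as lower. Over both sexes 0.022% were called. An unadjusted p under 0.05 was found for 22.1% of all genes in females, 6.52% in males and 11.9% over both sexes. How often sums of other gene sets fail to overlap was not computed. A set of 8 long noncoding RNAs (Kcnq1ot1, Malat1, Meg3, Miat, Mirg, Neat1, Rian and Snhg11), all tested, summed to 1212 to 2419 CPM in knock-in females and 5332 to 6943 CPM in 5xFAD females, with no overlap, and 7 of 8 fell in females. In males the sums overlapped, at 2624 to 7801 CPM in knock-in and 1459 to 6280 CPM in 5xFAD animals. All 12 choroid plexus markers were detected in every group, with a sum of 5149 to 16134 CPM in knock-in females and 874 to 7260 CPM in 5xFAD females, and 0 of 12 passed the edgeR test in females (0 at an unadjusted p under 0.05). Knock-in female 4, which had the highest Hspa5, Hsp90b1 and Pdia4, also had the highest choroid plexus level of the 19 libraries. Over the 19 libraries, Pearson r of the members with that level ran from -0.22 for Atf4 to 0.69 for Pdia4, with 0.47 for Hspa5. With group means removed it ran from -0.28 for Atf4 to 0.59 for Pdia4, with 0.48 for Hspa5. No p was computed for these r. All 12 microglial markers were detected (947 to 1448 against 821 to 1078 CPM in females), and 1 of 12, Cd68, rose. Their median log2 change was 0.30 in females (5 of 12 at an unadjusted p under 0.05) and 0.54 in males (9 of 12). Over both sexes it was 0.41 (12 of 12, Cd68 past the threshold). The 12 astrocyte markers summed to 6581 to 7743 CPM in knock-in females and 5094 to 5804 CPM in 5xFAD females, without overlap, and 3 of 12 rose. The 5 erythrocyte markers also did not overlap (191.8 to 354.6 against 100.2 to 159.0 CPM), and 3 of 5 rose.

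With the mean log2 level of the noncoding set as a covariate, edgeR called 0 of 10 members in females. It also called 0 of all 18204 genes tested, so the loss of calls was not particular to the members. The log2 changes were then 0.28 for Hspa5 (SE 0.20), 0.40 for Pdia4 (SE 0.21) and 0.17 for Hsp90b1 (SE 0.17), each with an adjusted p of 1.00, and 0.05 for Xbp1, compared with 0.65, 0.65, 0.39 and 0.43 without it. Because the female groups do not overlap in this level, its part and that of genotype cannot be told apart. With the choroid plexus level, Hspa5 (0.56, edgeR adjusted p = 0.0338) and Pdia4 (0.55, adjusted p = 0.0313) passed and Hsp90b1 did not (0.36, adjusted p = 0.0814). In that fit 2.58% of all genes were called. With the microglial level 0 passed, at 0.64 for Hspa5 (edgeR adjusted p = 0.119), 0.59 for Pdia4 (adjusted p = 0.131) and 0.29 for Hsp90b1 (adjusted p = 0.321). Of all genes, 0 were called in that fit. The part of astrocyte and erythrocyte RNA in the result was not tested.

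Across the 19 libraries, several members were high where the noncoding set was low. Of 10 members, 6 (Hspa5, Hsp90b1, Xbp1, Pdia4, Calr and Pdia6) had an adjusted permutation p under 0.05 for Pearson r (Benjamini-Hochberg over the 10 relations), although for Pdia6 the Spearman value missed (adjusted permutation p = 0.0624). Hspa5 had r = -0.80 and Spearman rho = -0.74 (permutation p = 3e-05 and 0.00059, adjusted 0.0003 and 0.00197, n = 19). Its r was -0.73 when the 2 libraries farthest from the median noncoding level were left out, and -0.53 on deviations from group means. Hsp90b1 had r = -0.74 (rho -0.68, adjusted permutation p = 0.0013 and 0.00502, n = 19), or -0.68 without the farthest 2 and -0.44 with group means removed. For Pdia4 r was -0.72 (rho -0.57, adjusted permutation p = 0.0013 and 0.0263, n = 19), and these checks gave -0.53 and -0.36. Dnajb9 (r = -0.47, rho = -0.55, adjusted permutation p = 0.0587 and 0.0263, n = 19) and Sdf2l1 (r = -0.41, rho = -0.31, adjusted permutation p = 0.101 and 0.226, n = 19) missed the threshold for r. At the other end, Ddit3 (r = -0.17, rho = -0.21, adjusted permutation p = 0.479 and 0.388, n = 19) and Atf4 (r = -0.24, rho = -0.38, adjusted permutation p = 0.365 and 0.139, n = 19) showed no relation past the threshold. With group means removed, however, r was -0.40 for Ddit3 and -0.36 for Atf4, close to the -0.36 of Pdia4. Inside the groups, these 2 genes thus did not stand apart from Pdia4. Both quantities come from the same libraries and share their scaling. The permutations ran over all libraries without regard to group, and this level separates the female groups. Other genes were not tested against it, so the count of 6 has no share over all genes beside it. No p was computed for the r with group means removed.

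**Figure D3:**
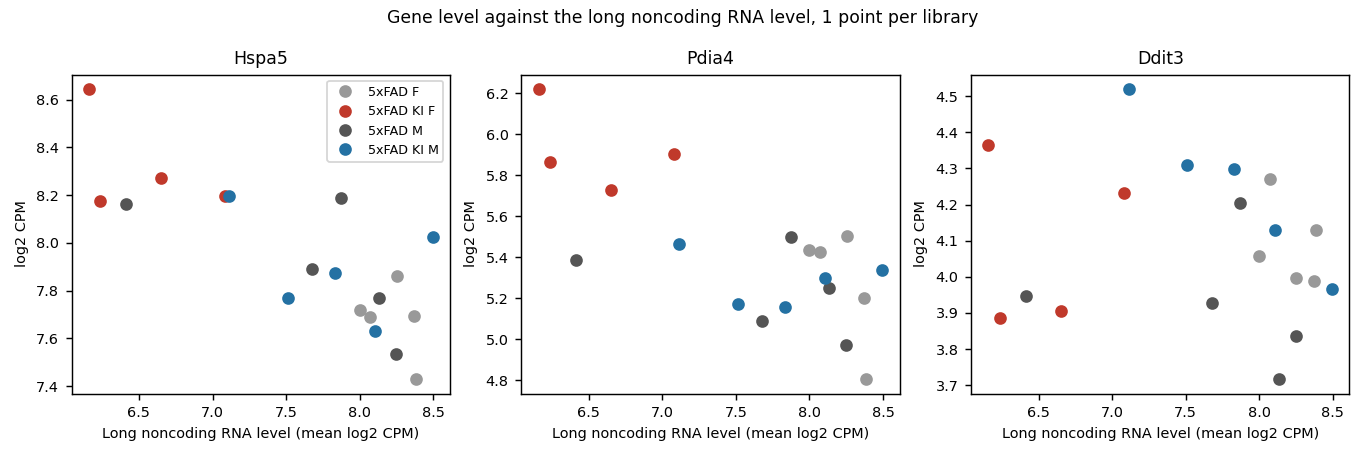
Level of Hspa5, Pdia4 and Ddit3 (log2 CPM) against the mean log2 CPM of 8 long noncoding RNAs, 1 point for each of 19 libraries, coloured by group. For Hspa5 and Pdia4 the 4 knock-in females sit at the upper left and the 5xFAD females at the lower right (r = -0.80 and -0.72). For Ddit3 r was -0.17 over all libraries. With group means removed, r was -0.53 for Hspa5, -0.36 for Pdia4 and -0.40 for Ddit3.

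The members also varied together between animals. Over levels, Hspa5 went with Hsp90b1 (Pearson r = 0.85, rho = 0.78), Pdia4 (0.85, 0.73), Calr (0.79, 0.80), Pdia6 (0.78, 0.78), Xbp1 (0.72, 0.69) and Sdf2l1 (0.62, 0.68), all with adjusted permutation p of 0.00714 or less over 9 relations (n = 19). Without the 2 libraries farthest from the median Hspa5 level, these 6 correlations were between 0.65 and 0.84. Hspa5 did not go with Dnajb9 (r = 0.28, rho = 0.25), Ddit3 (0.27, 0.19) or Atf4 (0.23, 0.34) past the threshold (adjusted permutation p for r of 0.305 or more, n = 19). Genes other than the members were not tested against Hspa5, and these permutations also ran without regard to group.

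With group means removed, so that genotype and sex no longer contribute, 42 of 45 pairs of members had a positive r, with a median of 0.56. The largest were Sdf2l1 with Pdia6 (r = 0.83, rho = 0.86), Hspa5 with Pdia6 (r = 0.81, rho = 0.74) and Atf4 with Ddit3 (r = 0.81, rho = 0.79). The negative pairs all held Dnajb9, with Hspa5 at -0.19, with Pdia6 at -0.25 and with Sdf2l1 at -0.62. For Dnajb9 with Sdf2l1, both linked to BiP, rho was -0.62, the permutation p was 0.00449 for r and 0.00531 for rho (adjusted over 45 pairs 0.0106 and 0.0149, n = 19), and r was -0.61 without the 2 farthest libraries. Thus Dnajb9 was low in the animals in which Sdf2l1 was high, within the same group, while the other members mostly varied in the same direction. The pairs share libraries and scaling, and removing group means leaves the 19 deviations not fully independent.

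**Figure D4:**
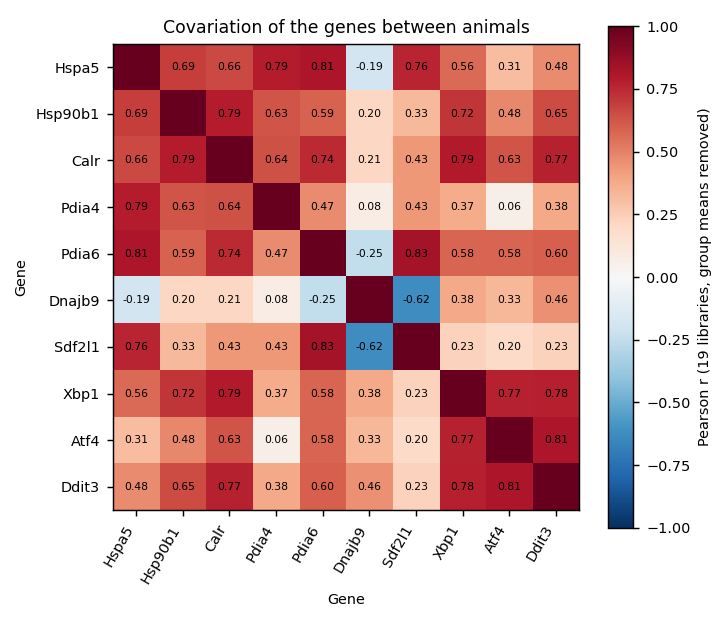
Pearson r between the 10 genes over 19 libraries, on log2 CPM with the mean of each of the 4 groups removed; both axes list the genes, and colour and number give r. Red squares dominate, and the row of Dnajb9 holds the 3 negative pairs, down to -0.62 with Sdf2l1.

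Spread between animals of a group was moderate. The residual SD of log2 CPM ran from 0.16 for Hsp90b1, at the 15.2 percentile of all tested genes, to 0.32 for Sdf2l1, at the 58.2 percentile. Outside the pathway and marker lists, the genes whose deviations from group means were most like the mean of the 10 members were Psap (prosaposin, r = 0.93), Bsg (basigin, r = 0.91), Tmed3 (0.90), Fcgrt (0.90) and Ebp (0.89), out of 17976 genes over 19 libraries. Only Psap and Bsg exceeded 0.9. None of these 5 passed in females by edgeR, with log2 changes between 0.15 for Ebp (adjusted p = 0.693) and 0.55 for Fcgrt (adjusted p = 0.0720).

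The wider pathway was read from 6 lists of genes, whose counts in females stand against 1.13% of all genes called as higher and 5.56% in either direction. Of 31 other ER chaperones and folding enzymes, 4 rose in females and 0 fell by edgeR, with a median log2 change of 0.20. Pdia3 (ERp57), a disulfide isomerase that works with calreticulin and calnexin, rose by 0.49 on the log2 scale (SE 0.11, edgeR adjusted p = 0.0185), and averaged 255.4 ± 39.7 CPM in the 4 knock-in females against 181.3 ± 12.8 CPM in the 5 others (± SD). Canx, the membrane chaperone calnexin, rose by 0.40 (adjusted p = 0.0289), the Hsp70-like Hspa13 by 0.31 (adjusted p = 0.0371) and the PERK inhibitor and J-domain protein Dnajc3 by 0.43 (adjusted p = 0.0476). Pdia3, Canx and Hspa13 did not overlap between the female groups.

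Of 29 genes of ER entry and N-glycosylation, 3 rose and 0 fell, with a median of 0.19. These were Ssr3, a subunit of the translocon-associated complex (log2 change 0.39, edgeR adjusted p = 0.0167), Sec62, a translocation factor (0.35, adjusted p = 0.0249), and Stt3a, a catalytic subunit of the oligosaccharyltransferase (0.37, adjusted p = 0.0370). The 27 genes of ER-associated degradation had a median of 0.12. Among them Herpud1, an adaptor of the degradation complex (0.35, edgeR adjusted p = 0.0548), and Erlec1, an ER lectin (0.33, adjusted p = 0.0749), missed the threshold.

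Of 23 targets of ATF4 and CHOP that were tested (24 listed), 1 rose and 0 fell, with a median of 0.07. It was Phgdh, the first enzyme of serine synthesis (log2 change 0.48, edgeR adjusted p = 0.0412), whereas Psat1 of the same route (0.36, adjusted p = 0.0683) and the factor Cebpb (0.82, adjusted p = 0.139) did not pass. Of 15 sensors and regulators of the response, edgeR called 0 in females, with 3 higher and 1 lower at an unadjusted p under 0.05, where 22.1% of all genes had such a p, and a median of 0.15. The lowest p were those of Nfe2l2 (0.44, adjusted p = 0.0713), Ern1, which encodes the sensor IRE1 (-0.33, adjusted p = 0.163), and Ppp1r15b, a phosphatase subunit (0.18, adjusted p = 0.167). Of 3 KDEL receptors, which return ER proteins from the Golgi, the median was 0.39, and edgeR called 0, with 1 at an unadjusted p under 0.05, namely Kdelr2 (0.39, adjusted p = 0.104). Kdelr1 (0.20, adjusted p = 0.367) and the scarce Kdelr3 (1.00, adjusted p = 0.302) did not pass.

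No gene of these 6 lists was called by edgeR in males, and the list medians there were between -0.06 for ER-associated degradation and 0.13 for the KDEL receptors. Over both sexes none was called either. The lowest p of each list were then those of Nfe2l2 (log2 change 0.35, edgeR adjusted p = 0.225), Pdia3 (0.25, adjusted p = 0.322), Selenos (0.20, adjusted p = 0.403), Phgdh (0.29, adjusted p = 0.297), Stt3a (0.17, adjusted p = 0.395) and Kdelr3 (0.78, adjusted p = 0.434).

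**Figure D5:**
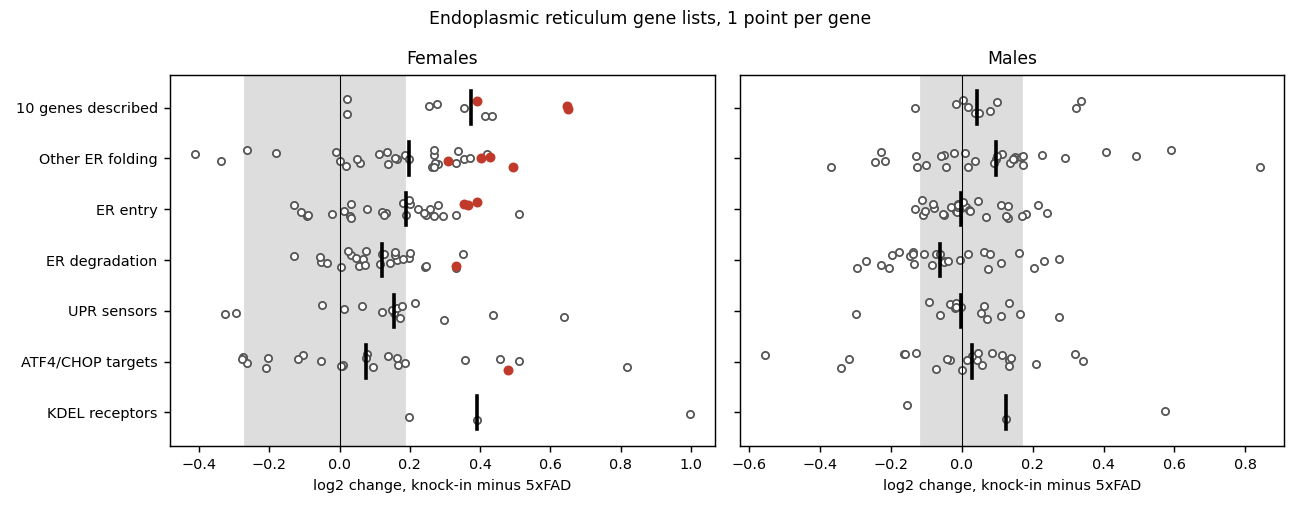
Log2 change between knock-in and 5xFAD animals for the genes of 7 lists in females (left) and males (right), 1 point for each gene; filled points passed an edgeR adjusted p of 0.05, black bars are list medians and the grey band holds the middle 50% of all tested genes. In females the bars run from 0.07 for the targets of ATF4 and CHOP to 0.37 for the 10 described genes and 0.39 for the 3 KDEL receptors, and in males there are no filled points.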

How the data were processed

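Bulk RNA sequencing of 19 libraries, 1 per animal, was analysed from 3 deposited tables. The submitters' processing notes name mm39 as the build and Salmon, FastQC, Seurat and DESeq2 as tools, with no versions. The authors' estimated counts for each gene, deposited in whole numbers, were used for the tests. The second is a signal, counts that the authors normalized by gene-specific factors, and served as an alternative. The third holds the authors' deposited variance-stabilized log2 values, which entered no test. Library strandedness is not given in the sources used here, so reads of overlapping antisense genes cannot be told apart. A symbol from GENCODE M21 was found for 20023 of 20655 gene IDs (96.9%).

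The test was that of edgeR 4.0.16 under R 4.3.3 (TMM, filterByExpr with a minimum of 10 counts, robust quasi-likelihood test), with Benjamini-Hochberg adjustment over 18204 genes and a threshold of 0.05. The genotype effect used sex as a covariate, and the other 5 comparisons were contrasts of the means of the 4 groups in a common fit. Log2 CPM used a prior count of 2. Single members were also tested by an exact permutation test (two-sided, relabelling genotype inside each sex), and relations by 100000 permutations. The edgeR script was tested on simulated data.

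The 10 members, the lists and the noncoding set were chosen with earlier results of these data known. Named genes were all members, from each pathway list the up to 3 genes with the lowest p over both sexes and in females, and the 5 genes outside the lists most like the members. Dnajc3 in females is named beyond this rule, chosen after its values were seen, and 1 gene that the rule names is not reported here. Alternatives were DESeq2 1.42.0, limma-voom (limma 3.58.1), scaling by library size alone or by DESeq2's size factors, no filter, 1 CPM in at least 4 libraries, limma on the normalized values with a pseudocount of 1, the noncoding level as a covariate, a replicate block and leaving out each library. The choroid and microglial covariates were added after seeing the data. Replicates are separate animals by the labels, and within-group pairs differed by more than sampling noise (chi-square per gene at least 10.3 in 36 pairs). Promoters are RefSeq sequences of GRCm38.p6.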

Additional observations from a re-analysis of the deposited data

Results flagged for a closer look

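Of 56 sets of values checked (40 of them a member in a group), 2 held a library far from the others, where chance gives about 1 in 20. For Xbp1, 5xFAD female 2 was low, at 62.8 CPM with the next library of its group at 71.9 CPM. In total counts, knock-in female 5 was deep, at 25.2 M with the next knock-in female at 20.3 M.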

How the results depend on the processing

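Over all alternatives for single genes, 1086 of 1164 values stayed on the same side of 0 and of the threshold, 22 lost and 18 gained a call, and 38 changed sign. Only 3 members, in females, were called in the main fit, so most values stayed the same by staying uncalled. A missing adjusted p was counted as the same. In females, where 3 members were called, DESeq2 called 5, the noncoding covariate 0, the microglial covariate 0 and the replicate block 0, and leaving out 1 library gave 0 to 6. Of all genes in females, DESeq2 called 9.4%, and each of these covariates and the replicate block called 0. The numbers in the titles did not pair the animals (9 same-number pairs, correlations of deviations from -0.20 to 0.12, 2 over 0.1, 1 pair most alike in its own number). Under the replicate block the log2 changes were 0.65 for Hspa5, 0.69 for Pdia4 and 0.39 for Hsp90b1. Between the sexes, DESeq2 called 2 members for the interaction and 1 in knock-in animals, and leaving out 1 library gave 0 to 1 and 0 to 2. Of all genes, DESeq2 called 3.9% for the interaction and 2.81% in knock-in animals. Over 30 alternatives in females Hspa5 and Pdia4 each kept the call in 25 and Hsp90b1 in 18, and all 3 stayed above 0 in every one. Of these, 19 left out 1 library, and the call was kept in 17, 17 and 13 of them. Each of those losses came in a fit without a female. Fits without a male keep the same females and change only the shared spread, scaling and filter. They are thus a weak check of the calls in females. Library size alone, which moved the median of all genes in females from 0.01 to -0.09, gave -0.080 for Atf4 and -0.080 for Ddit3 in females and 0.020 for Hspa5 in males. With the noncoding covariate the log2 change in females was -0.22 for Atf4, -0.22 for Ddit3, -0.087 for Sdf2l1 and -0.0076 for Pdia6, in males 0.023 for Hspa5, and over both sexes -0.013 for Atf4 and -0.030 for Dnajb9. With the microglial covariate it was -0.11 for Atf4 and -0.098 for Ddit3 in females, -0.16 for Hsp90b1 and -0.046 for Pdia4 in males, and -0.13 for Atf4 and -0.0060 for Ddit3 over both sexes. With the choroid covariate it was -0.0075 for Hsp90b1 and -0.0089 for Pdia4 in males. In males Hsp90b1 was also -0.0048 with DESeq2, -0.0043 with its size factors and -0.0013 without a filter. Leaving out 1 library gave in females -0.023 to 0.11 for Atf4 and -0.053 to 0.11 for Ddit3, in males -0.0995 to 0.049 for Hspa5, -0.053 to 0.051 for Hsp90b1 and -0.024 to 0.10 for Pdia4, and over both sexes -0.0073 to 0.090 for Atf4. The cause of these changes was not tested. Groups of 4 and 5 animals and a noncoding level that separates the female groups limit what the comparison in females can show.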
